A study of Mus musculus with 2 samples.

Results

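The interferon-stimulated genes described here are 40 mouse genes whose products carry out the cell's response to type I and type II interferon. They were taken by name from a table of DNase I signal over coding spans, with the transcript of the most windows standing for each gene. All 40 are listed, among 22605 genes in all, and all 40 had more than 21 reads in at least 1 library, as did 18472 of all genes. The Irf and Stat transcription factors were not counted as members. The DNase I hypersensitivity experiment (DHS-seq) used M1, an established line of mouse myeloid leukemia cells labelled as bone marrow derived myeloid progenitors. The M1 group is 1 library of untreated cells and the M1+IL-6 group is 1 library of the same line given interleukin-6, a cytokine that drives these cells toward macrophages, for 4 to 5 days. Both were grown in RPMI medium with horse serum, and neither label gives a gene edit, a transgene or an interferon treatment. With 1 library per condition no difference has a replicate check, and no p-value is given.

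Interferons bind receptors at the cell surface, Janus kinases then phosphorylate STAT proteins, and STAT complexes enter the nucleus. The DNA letters they recognize near their target genes are the interferon-stimulated response element (ISRE) and the gamma-activated site (GAS). IL-6 also signals through Janus kinases, mainly to STAT3, and myeloid cells are known for a ready interferon response. DNase I cuts open chromatin first, so a stretch with many reads was more accessible to the enzyme. These reads measure accessibility, and not how much RNA a gene makes.

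The ISRE core is shown for members that hold it. The letters GAAA, any 2 bases and GAAA again were searched on both strands of the 250 bases upstream of the gene start in the RefSeq promoter table (GRCm38.p6), with overlapping matches counted. Of the 40 members, 28 had an entry, and all 34 of their promoters were found once, letter for letter, on the chromosome of NCBIM37, the build of the files. The core was present in 14 of 28 members (50%), against 936 of 27025 genes with a promoter (3.46%). Capitals mark the matched bases, which read TTTC, any 2 bases and TTTC where the match is on the other strand, with overlapping matches joined. Each line runs 5′ to 3′ on the gene's strand.
Isg15 (chr4:155574969-155575020, minus): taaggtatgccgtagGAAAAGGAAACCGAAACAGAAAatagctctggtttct
Ifit1 (chr19:34715260-34715318, plus): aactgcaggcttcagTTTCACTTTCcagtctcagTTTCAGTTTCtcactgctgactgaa
Ifit3 (chr19:34657848-34657921, plus): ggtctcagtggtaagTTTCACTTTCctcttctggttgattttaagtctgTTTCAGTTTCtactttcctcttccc
Oas1a (chr5:121357535-121357569, minus): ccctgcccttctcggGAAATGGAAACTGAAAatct
Oas1g (chr5:121337623-121337655, minus): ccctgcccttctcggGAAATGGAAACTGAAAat
Oas1c (chr5:121262607-121262652, minus): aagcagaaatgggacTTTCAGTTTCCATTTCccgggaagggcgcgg
Oas3 (chr5:121227719-121227758, minus): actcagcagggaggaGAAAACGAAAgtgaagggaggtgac
Rsad2 (chr12:27141413-27141452, minus): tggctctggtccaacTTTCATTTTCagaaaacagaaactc
Ifitm2 (chr7:148141882-148141921, minus): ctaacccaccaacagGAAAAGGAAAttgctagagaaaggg
Bst2 (chr8:74061471-74061516, minus): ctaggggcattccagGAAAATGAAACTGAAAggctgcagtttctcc
Gbp3 (chr3:142222948-142222993, plus): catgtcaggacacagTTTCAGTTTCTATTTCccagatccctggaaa
Gbp7 (chr3:142193232-142193271, plus): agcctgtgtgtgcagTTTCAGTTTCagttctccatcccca
Gbp2 and Gbp5 held 1 match each and are not printed. The GAS core, TTCNNNGAA, which reads the same on both strands, was found in 7 of 28 members (25%) against 2197 of 27025 genes (8.13%). A match is a description of letters and says nothing on whether a factor was bound.

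**Figure D1:**
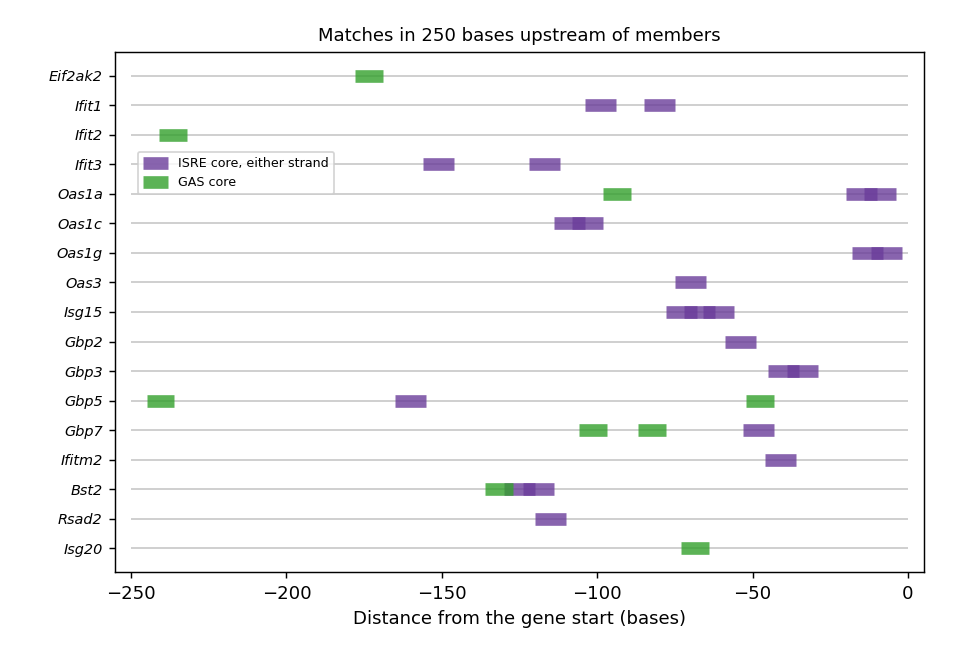
Positions of the ISRE core (purple) and the GAS core (green) in the 250 bases upstream of the gene start, in bases, for the members with a match of either. Each grey line is 1 promoter, and darker purple is where 2 matches overlap; Isg15 holds 3 overlapping matches, and those of Oas1a and Oas1g lie nearest to the start.

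Signal is given as reads per 700-bp window, averaged over the windows that a gene's coding span, from start to stop codon, touches. In the deposited values each read of the IL-6-treated library is worth 1.04, a constant read from the steps of the values whose origin is not given in the sources used here. Counts below are whole reads, and means per window keep this scaling. A set of coding spans that do not overlap, on the autosomes and X, held 9115986 reads in the untreated and 8557991 reads in the IL-6-treated library. The 40 members took up 839 windows on 12 chromosomes, from 2 to 69 windows each, and no member shared a window with another listed gene. They held 7625 reads in M1 and 6018 reads in M1+IL-6. The median member had 6.54 reads per window in M1 and 7.24 in M1+IL-6, against 7.75 and 8.14 for all genes. Ratios below are M1+IL-6 over M1 with 95% Clopper-Pearson intervals, which cover counting error only, compare these libraries rather than the conditions, and treat PCR reads as independent molecules, which they may not be. Directions hold for the scaling of the table. A scaling on strong windows raises all log2 ratios by about 1.83, and no member then stays below 1. Each member is therefore to be read against the other genes.

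As a group the members did not move one way. With the 2-fold limit, 3 of 40 members were lower in the IL-6-treated library (Bst2, Ifitm2 and Dhx58) and 0 were higher, while 13.4% of all genes passed this limit downward and 1.69% upward. The ratio was below 1 in 24 members and above 1 in 16, against 48.3% of all genes below. The interval lay wholly below 1 in 12 members, with 34.4% of all genes, and wholly above 1 in 8, with 29.0% of all genes. The median log2 ratio of the members was -0.10, and that of all genes was 0.03. By role, the median log2 ratio was -1.14 for the 4 membrane restriction factors, which ranged from -1.49 to -0.10, 0.48 for the 6 guanylate-binding proteins and 0.43 for the Mx genes. The other role groups lay closer together, with -0.33 for the other effectors, -0.31 for Ifit, -0.25 for the sensors, -0.09 for both Oas and the ISG15 system and -0.06 for PARP. Without the Oas, Gbp, Ifit and Ifitm families, whose copies share sequence, 14 of the remaining 20 members were lower and the median was -0.19.

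**Figure D2:**
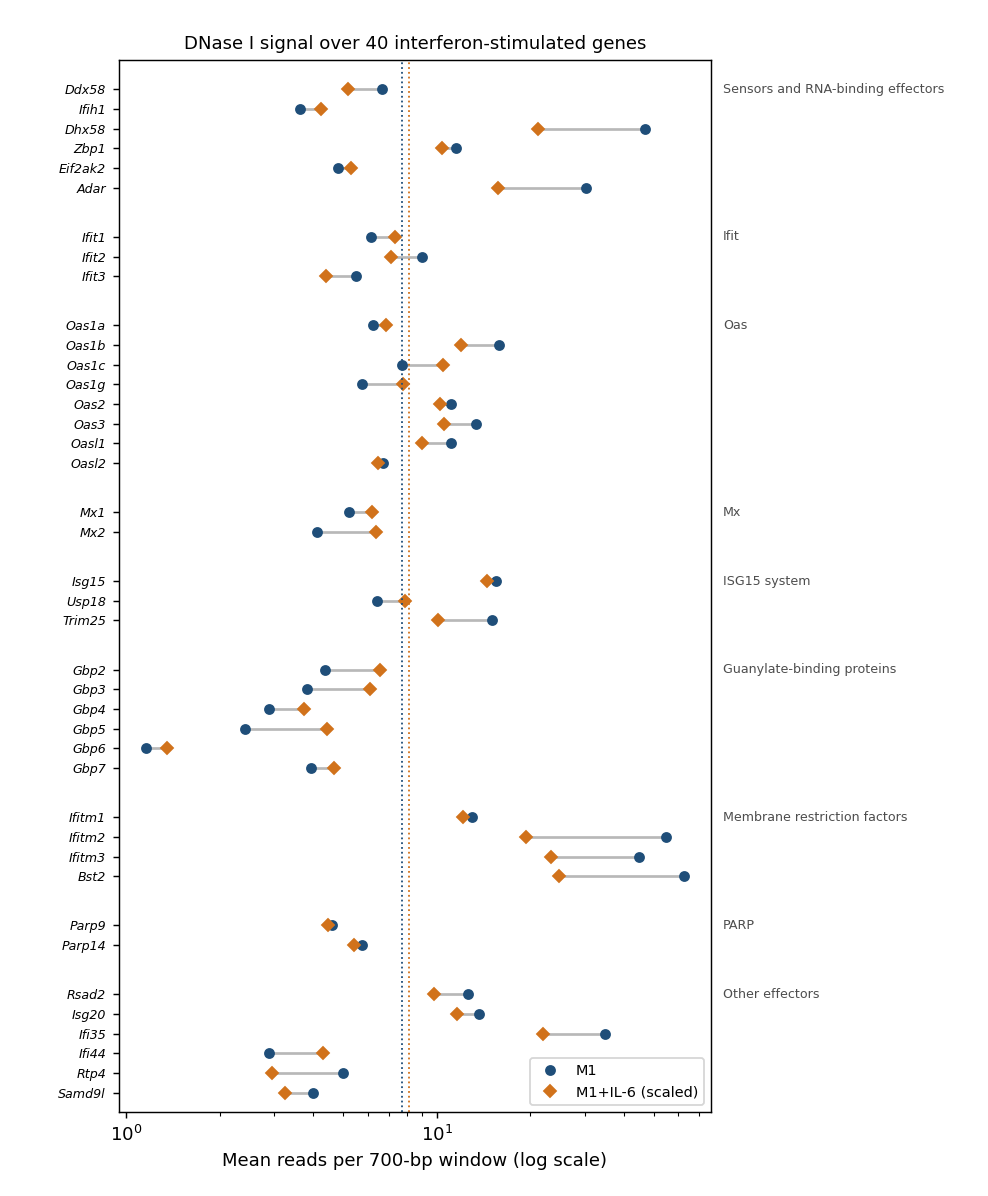
Mean reads per 700-bp window (log scale) of each member in the untreated library (blue circles) and the IL-6-treated library (orange diamonds, scaled), grouped by role. Dotted lines are the medians of all genes, 7.75 and 8.14; Bst2, Ifitm2, Dhx58, Ifitm3, Ifi35 and Adar stand highest in M1, and all 6 Gbp genes lie below both lines.

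Of the membrane restriction factors, Bst2 and Ifitm2 had the highest M1 means of all 40 members, and Ifitm1 was near the level of many others. Bst2, also called tetherin, holds budding virus particles at the cell surface. Its 5 windows (coding span chr8:74058589-74061326, minus strand) held 314 reads in M1 and 119 in M1+IL-6, or 62.8 and 24.7 reads per window, a ratio of 0.393 (0.316 to 0.487). In M1 its strongest window held from 138 to 199 reads and in M1+IL-6 from 39.5 to 62.3 scaled reads, so the ranges that the means and SDs allow do not meet. Both ISRE matches printed for Bst2 lie just outside its measured windows, which end at 74061400. The M1 mean of Bst2 was at the 97 percentile of all genes.

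The Ifitm proteins block the fusion of virus and cell membranes. Ifitm2, on chromosome 7 from 148140884 to 148141814, held 164 reads in M1 and 56 in M1+IL-6, which is 54.7 and 19.4 reads per window. Its ratio of 0.354 (0.257 to 0.483) was the lowest of the members. The 3 windows of Ifitm2 in M1+IL-6 held 24, 21 and 11 reads in some order, and at least 1 window in M1 held 81 or more reads. The ISRE match of Ifitm2 lies within these windows. Ifitm3 held 90 reads in M1, split 57 and 33 between its windows, and 45 in M1+IL-6, split 31 and 14. That is a ratio of 0.519 (0.355 to 0.750), lower in the IL-6-treated library but just short of 2-fold. Ifitm1, the other member of the cluster, held 39 reads in M1 and 35 in M1+IL-6, a ratio of 0.932 whose interval of 0.573 to 1.51 spans 1. At 13.0 reads per window in M1 it also had less signal than Ifitm2 and Ifitm3. In its windows 73.4% of the 32-base sequences occur once in the genome, against 83.8% in Ifitm2 and 89.1% in Ifitm3. The part of this in the lower signal of Ifitm1 was not tested. The start of its GENCODE transcript lies outside its windows, but the RefSeq promoter, from 148153725 to 148153974, lies inside them.

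The sensors and RNA-binding effectors detect or edit double-stranded RNA. Dhx58 encodes LGP2, a helicase that tunes the signal of the other helicase sensors. Its 13 windows on chromosome 11 (100556471 to 100565382) held 611 reads in M1 and 266 in M1+IL-6, or 47.0 and 21.2 reads per window, with a ratio of 0.452 (0.390 to 0.523). At least 1 window held 109 reads or more in M1, and none held over 78.9 scaled reads in M1+IL-6. Its relatives Ddx58 and Ifih1, which encode the sensors RIG-I and MDA5, had less signal per window, averaged over longer spans. Ddx58 held 347 reads in M1 and 259 in M1+IL-6 over 52 windows, 6.67 and 5.17 reads per window, at a ratio of 0.775 (0.657 to 0.913). Ifih1 held 250 and 282 reads over 69 windows, 3.62 and 4.24 per window, at a ratio of 1.17 (0.984 to 1.39). The strongest window held from 18 to 67 M1 reads in Ddx58 and from 9 to 36 in Ifih1. The transcript starts of Dhx58 and Ifih1 lie outside their windows, as does the RefSeq promoter of Ifih1. Among these helicases the gene with the most signal per window was thus the lowest in ratio. Zbp1, a sensor of Z-form nucleic acids, and Eif2ak2, the kinase PKR that stops translation, had ratios of 0.908 (0.740 to 1.11) and 1.10 (0.885 to 1.37), and both intervals span 1.

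Adar, which converts adenosine to inosine in double-stranded RNA, had its signal gathered at the 5′ end. Over all 30 windows (coding span chr3:89534733-89555097) it held 906 reads in M1 and 455 in M1+IL-6, 30.2 and 15.7 reads per window, at a ratio of 0.521 (0.465 to 0.584). Nested transcripts divide this span. The 7 windows at the 5′ end, chr3:89534201-89539100, held 645 reads in M1 and 167 in M1+IL-6, a ratio of 0.269 (0.225 to 0.319). The next 4 windows held 51 and 72 reads, a ratio of 1.47 (1.01 to 2.14), and the last 19 windows held 210 and 216 reads, a ratio of 1.068 (0.879 to 1.30). The lower value of Adar therefore lay in the 5′ windows, and the ratio of the rest of the span was above 1. At least 1 window held 309 or more of the M1 reads, while in M1+IL-6 none held over 103 scaled reads. Of the 3 Adar promoters in the RefSeq table, the one at 89534390 to 89534639 lies in these windows, and no ISRE core was found in any of them.

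The Ifit genes, which encode proteins that bind viral RNA ends and block its translation, had few reads. Ifit1 held 74 reads in M1 and 85 in M1+IL-6 over 12 windows, 6.17 and 7.35 per window, with a ratio of 1.19 (0.863 to 1.65). Ifit2 held 63 and 48 reads over 7 windows, 9.0 and 7.12 per window, with a ratio of 0.791 (0.532 to 1.17). Ifit3 held 44 and 34 reads over 8 windows, with a ratio of 0.802 (0.497 to 1.28). All 3 intervals span 1, so no difference was detectable at this depth. The ISRE matches of Ifit1 and Ifit3 lie within their windows. Only 42.5% of the 32-base sequences in the windows of Ifit3 occur once in the genome, so its reads are less certain than those of Ifit1, at 95.1%.

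Active 2′-5′-oligoadenylate synthetases (Oas) make the messenger that activates RNase L, which degrades RNA. Oas3 had the most reads, with 456 in M1 and 345 in M1+IL-6 over 34 windows (chr5:121204373-121227633), 13.4 and 10.5 per window, and a ratio of 0.786 (0.681 to 0.905). Its 31 windows toward the 5′ end held 414 and 283 reads, a ratio of 0.710 (0.608 to 0.828). The 3 windows at the 3′ end held 42 and 62 reads, a ratio of 1.53 (1.02 to 2.32). Oas2 held 290 reads in M1 and 256 in M1+IL-6, with a ratio of 0.916 (0.772 to 1.09). Within it, 8 windows in the 3′ part (chr5:121183301-121188900) held 44 and 77 reads, a ratio of 1.82 (1.24 to 2.69), higher in the IL-6-treated library. Oas1b showed the same contrast within a gene as Adar did. Its 4 windows at the 5′ end, chr5:121262401-121265200, held 123 reads in M1 and 50 in M1+IL-6, a ratio of 0.422 (0.298 to 0.591). The other 9 windows held 84 and 100 reads, a ratio of 1.24 (0.915 to 1.67).

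The 5′ windows of Oas1b are also those that hold the ISRE matches printed for Oas1c, which starts at 121262523 on the opposite strand while Oas1b starts at 121262644. The signal of this stretch cannot be assigned to either gene. The coding span of Oas1c, which does not include it, held 93 reads in M1 and 121 in M1+IL-6, 7.75 and 10.5 per window, at a ratio of 1.35 (1.02 to 1.79). Oas1g held 92 and 120 reads at a ratio of 1.35 (1.02 to 1.80), and its 9 windows at the 5′ end held 33 and 56 reads, a ratio of 1.76 (1.13 to 2.80). Oas1g was thus the reverse of Oas1b, with its 5′ windows higher in the IL-6-treated library. Oas1a, whose printed ISRE stretch shares its first 33 bases with that of Oas1g, held 100 and 106 reads at a ratio of 1.10 (0.829 to 1.46). Only 59.0% of the 32-base sequences of Oas1a, 59.8% of those of Oas1g and 77.5% of those of Oas1c are unique. The reads of these copies are thus less certain. The Oas-like genes Oasl1 and Oasl2 had ratios of 0.807 (0.660 to 0.984) and 0.968 (0.753 to 1.25). In Oasl2 the 4 windows at the 5′ end held 41 reads in M1 and 19 in M1+IL-6, and the other 16 held 93 and 106.

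The Mx genes encode dynamin-like GTPases that trap viral components. Mx2 held 132 reads in M1 and 196 in M1+IL-6 over 32 windows (chr16:97760253-97782176), 4.13 and 6.36 per window, at a ratio of 1.54 (1.23 to 1.94). Mx1 held 99 and 113 reads, 5.21 and 6.17 per window, at a ratio of 1.19 (0.897 to 1.57). Both were above 1, and the interval excluded 1 for Mx2. In neither library did a window of Mx1 exceed 21 reads, the limit that the methods use for a hypersensitive site.

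The ISG15 system attaches the ubiquitin-like protein ISG15 to other proteins. Isg15 itself, with 3 overlapping ISRE matches, has a short coding span of 2 windows (chr4:155573693-155574817). They held 17 and 14 reads in M1 and 15 and 13 reads in M1+IL-6, a ratio of 0.938 (0.542 to 1.62). These windows touch the matches and the transcript start, and the libraries were not distinguishable there. Usp18, the protease that removes ISG15, held 173 reads in M1 and 206 in M1+IL-6, 6.41 and 7.92 per window, at a ratio of 1.24 (1.00 to 1.52). Trim25, an E3 ligase that acts on RIG-I, held 376 and 244 reads, 15.0 and 10.1 per window, at a ratio of 0.674 (0.571 to 0.794). Its 21 windows toward the 5′ end held 349 and 197 reads, a ratio of 0.586 (0.490 to 0.7), and the 4 others 27 and 47 reads, a ratio of 1.81 (1.10 to 3.02).

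The guanylate-binding proteins (Gbp) are GTPases that attack the vacuoles of intracellular pathogens. All 6 had a ratio above 1, all 6 had lower means in M1 than the median gene, and for none does the transcript start lie in the measured windows. Most genes of low signal were also above 1. These were 2574 of 3274 genes with a mean of both libraries under 5 reads per window, and 4126 of 6482 from 5 to 10. Gbp5 held 75 reads in M1 and 132 in M1+IL-6 over 31 windows (chr3:142163521-142184126), 2.42 and 4.42 per window. Its ratio of 1.83 (1.37 to 2.46) was the highest of all 40 members. Gbp3 held 61 and 94 reads, 3.81 and 6.10 per window, at a ratio of 1.60 (1.15 to 2.25). Gbp2 held 92 and 133 reads, 4.38 and 6.57 per window, at a ratio of 1.501 (1.14 to 1.98). These are the 3 Gbp genes whose interval excludes 1. Gbp4 held 81 and 101 reads, Gbp7 71 and 81, and Gbp6 30 and 34, and their intervals span 1.

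Signal within the Gbp5 span was uneven. Its 16 windows toward the 5′ end held 57 reads in M1 and 92 in M1+IL-6, a ratio of 1.68 (1.19 to 2.37), and the 4 windows at the 3′ end held 14 and 28, a ratio of 2.08 (1.06 to 4.27). The 11 windows between them held 4 and 12 reads, and 21.5% of their 32-base sequences are unique. Gbp6 had the least signal per window of all members, 1.15 reads in M1 and 1.36 in M1+IL-6, and also the lowest share of unique sequence, 31.0%. The part of unmappable sequence in these low values was not tested. In Gbp2 the 4 windows at the 5′ end held 23 and 42 reads, a ratio of 1.90 (1.11 to 3.30). The ISRE matches of Gbp2, Gbp3, Gbp5 and Gbp7 all lie outside the windows, so the values are those of the coding parts of these genes and not of their promoters.

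The PARP genes Parp9 and Parp14, members of the ADP-ribosyltransferase family that take part in antiviral defense, were nearly level. Parp14 held 305 reads in M1 and 277 in M1+IL-6, 5.75 and 5.43 per window, at a ratio of 0.943 (0.798 to 1.11). Parp9 held 211 and 198 reads, 4.59 and 4.47 per window, at a ratio of 0.974 (0.798 to 1.19).

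Among the other effectors, Ifi35 had the most signal. It encodes a leucine-zipper protein that takes part in innate signaling. It held 524 reads in M1 and 319 in M1+IL-6 over 15 windows (chr11:101309916-101319706), 34.9 and 22.1 per window, at a ratio of 0.632 (0.548 to 0.728). Rsad2 encodes viperin, which makes a chain-terminating nucleotide, and held 215 and 161 reads, 12.6 and 9.83 per window, at a ratio of 0.777 (0.630 to 0.958). Its 6 windows at the 5′ end hold the transcript start and the printed ISRE match and had 135 and 90 reads, a ratio of 0.692 (0.524 to 0.910). The other 11 windows of Rsad2 held 80 and 71 reads, a ratio of 0.921 (0.660 to 1.28). Isg20, an exonuclease, held 137 and 112 reads at a ratio of 0.849 (0.655 to 1.10). Ifi44 was the 1 member of this group above 1, with 72 and 104 reads and a ratio of 1.5 (1.10 to 2.05). Rtp4 held 30 and 17 reads and Samd9l 32 and 25, and the intervals of both span 1.

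**Figure D3:**
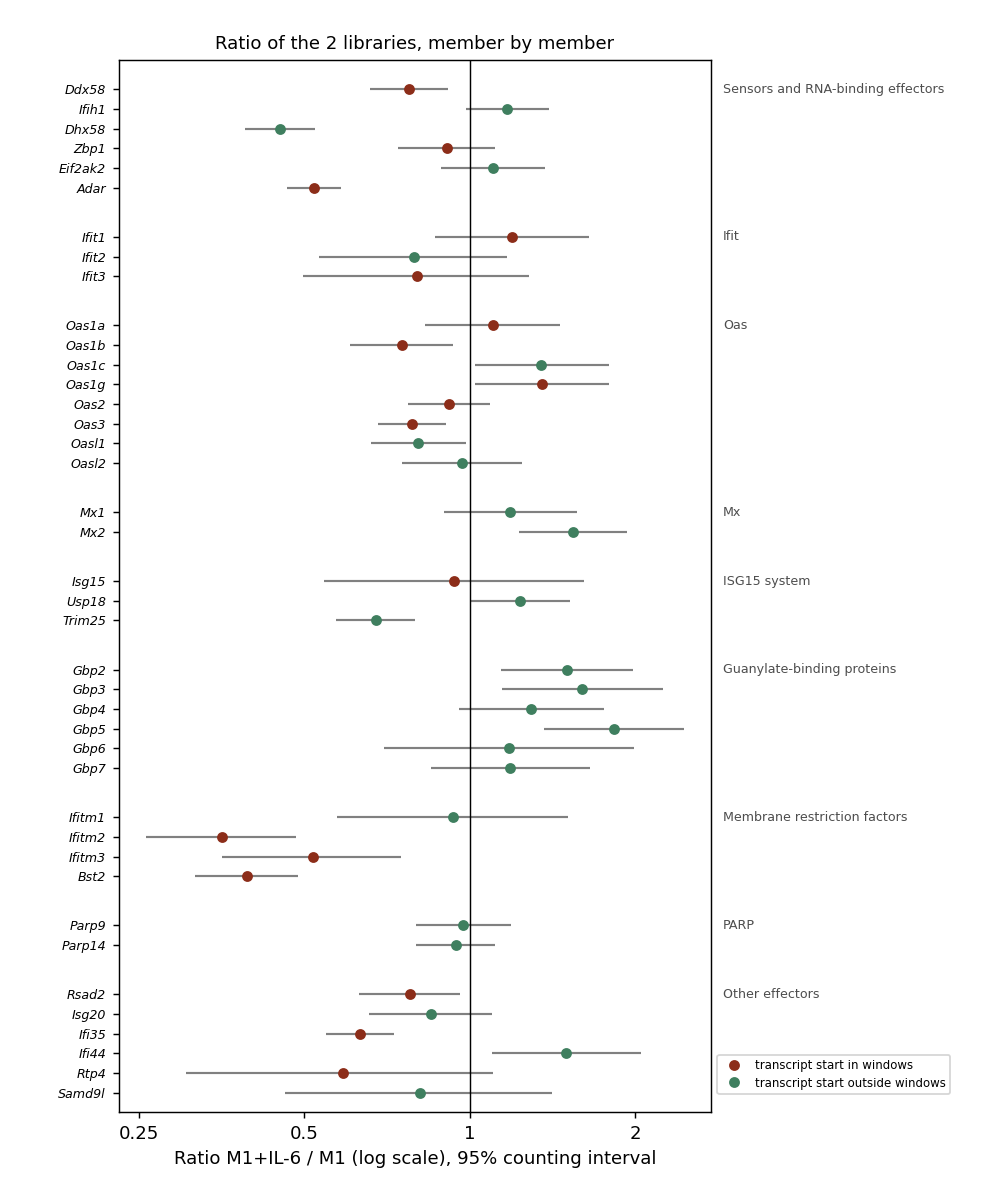
Ratio of M1+IL-6 to M1 (log scale) of each member with its 95% counting interval, colored by whether the transcript start lies in the measured windows. Ifitm2, Bst2 and Dhx58 lie farthest below 1, and the Gbp genes all lie above it.

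The lower ratios went with high signal and with the transcript start. The start of the GENCODE transcript lies in the windows of 17 members, against 55.0% of all genes. A start counted as outside can be near, as in Dhx58, where it lies at 100565585 and the windows end at 100565500. Ifitm1 and Isg20 also count as outside, though a RefSeq promoter lies inside their windows. Of these 17 members 14 had a ratio below 1, with a median log2 ratio of -0.36, and of the other 23 members 10 were below 1, with a median of 0.23. Of all genes, 5687 of 10159 with the start in the windows and 3240 of 8313 without it were below 1, with medians of -0.12 and 0.13. By level, the 11 members with a mean of both libraries under 5 reads per window had a median log2 ratio of 0.23. The 13 members from 5 to 10 had 0.24, the 10 from 10 to 20 had -0.27, and the 6 from 20 up (Bst2, Ifitm2, Ifitm3, Dhx58, Adar and Ifi35) had -1.04. The medians of all genes in the same classes were 0.37, 0.17, -0.11 and -1.19. The members thus lay near other genes of their own level, and 3 of the 6 most open members were at least 2-fold lower as against 1656 of the 2785 most open genes. Level and ratio use the same reads, so this is a description.

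**Figure D4:**
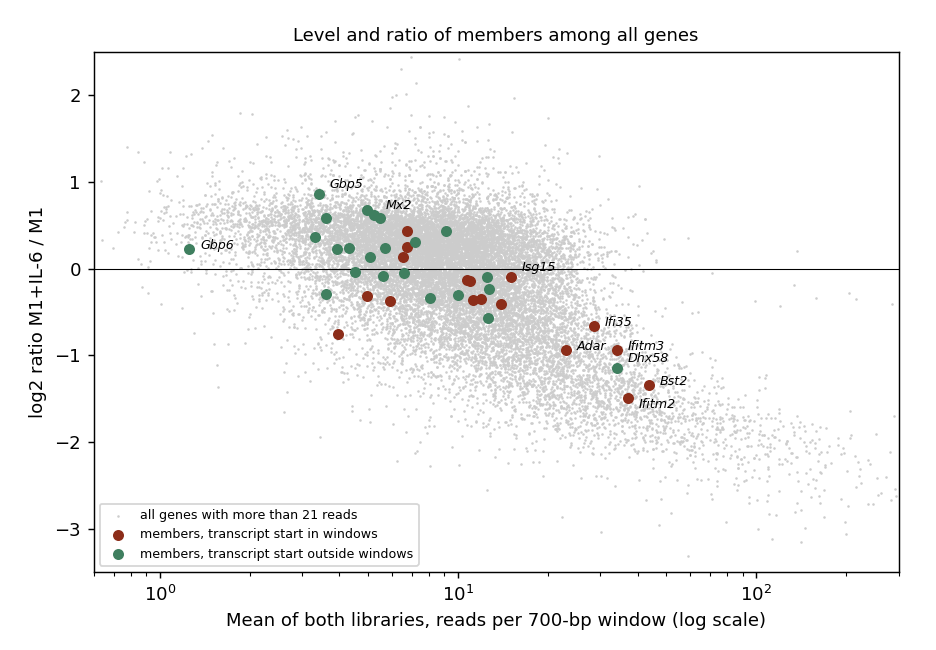
Log2 ratio of M1+IL-6 to M1 against the mean of both libraries in reads per 700-bp window (log scale), for 18472 genes with more than 21 reads (grey, 40 of them outside the axes) and the 40 members (colored by whether the transcript start lies in the windows). The members follow the slope of the grey cloud, from Gbp5 at 0.87 to Ifitm2 at -1.49.

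Base composition ran alongside level. Across the 40 members the Spearman correlation of the GC content of the windows with the M1 mean was 0.87, and with the log2 ratio it was -0.58. Across 18472 genes the same correlations were 0.66 and -0.21. These are correlations across genes within the same 2 libraries, and genes are not independent replicates. The 8 members with a GC content of 50% or more had a median of 30.3 reads per window in M1, and the 17 members from 40% to 45% had 4.82. The medians of all genes in these classes were 16.4 and 6.36. Median log2 ratios in these classes were -0.64 and 0.24 for the members, against -0.13 and 0.11 for all genes. The part of GC content in the ratios was not tested.

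Signal at the 5′ end could be set apart from the rest of the span in 21 members, and 17 of these had more than 21 reads in both parts. The log2 ratio was lower at the 5′ end than in the rest in 11 of these 17 (64.7%), against 69.4% of 6155 genes. In the 9 with the transcript start inside the windows it was lower in 7 (77.8%), against 77.2% of all such genes, and the exceptions were Ddx58 and Oas1g. Median log2 ratios of these 9 members were -0.49 at the 5′ end and 0.17 in the rest. The shares of the members were close to those of all genes. Values for the genes not yet divided follow by size. Ifi35 held 496 and 299 reads in its 14 windows at the 5′ end and 28 and 20 in the remaining window. Ddx58 held 293 and 221 reads at the 5′ end, over 45 windows, and 54 and 38 in the other 7. Oas2 held 284 and 249 reads in 25 windows, and 6 and 7 in the last. These genes had nearly all of their windows on the 5′ side, so the division says little of the promoter end. Zbp1 held 119 and 94 reads in 8 windows at the 5′ end, a ratio of 0.820 (0.619 to 1.08), and 88 and 87 in the other 10. Oas1a held 69 and 65 reads in 9 windows at the 5′ end and 31 and 41 in the rest. Ifit2 held 60 and 38 reads in 5 windows at the 5′ end, a ratio of 0.657 (0.426 to 1.00), and 3 and 10 in the other 2. In these genes the 5′ part had the lower ratio. Oas1c (41 and 45 reads), Parp9 (39 and 39), Gbp3 (20 and 31), Gbp6 (17 and 19), Mx1 (17 and 22) and Samd9l (7 and 5) had few reads at the 5′ end, and the intervals there all span 1. The 5′ windows of Adar stood out by size, with 92.1 reads per window in M1 and 24.8 in M1+IL-6.

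The mean and SD of a span set bounds on its strongest window. In M1, 13 members certainly had a window above 21 reads and 13 had none, while 42.8% and 21.4% of all genes did so. In M1+IL-6, 6 members certainly had such a window (Dhx58, Adar, Ifitm2, Ifitm3, Bst2 and Ifi35), against 22.1% of all genes, and 12 had none, against 19.3%. For 15 members the highest value allowed in M1+IL-6 lay below the lowest allowed in M1, with 27.6% of all genes. The reverse held for 0 members, with 6.04% of all genes. Among these 15 were Ifit2, Ifit3 and Oas1b. In Ifit2 the range went from 26 to 39 reads in M1 and from 14.5 to 22.8 scaled reads in M1+IL-6. The ranges carry no counting error, so edges as close as those of Isg15, Rsad2, Ifit2 and Ifit3 do not by themselves show a difference.

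**Figure D5:**
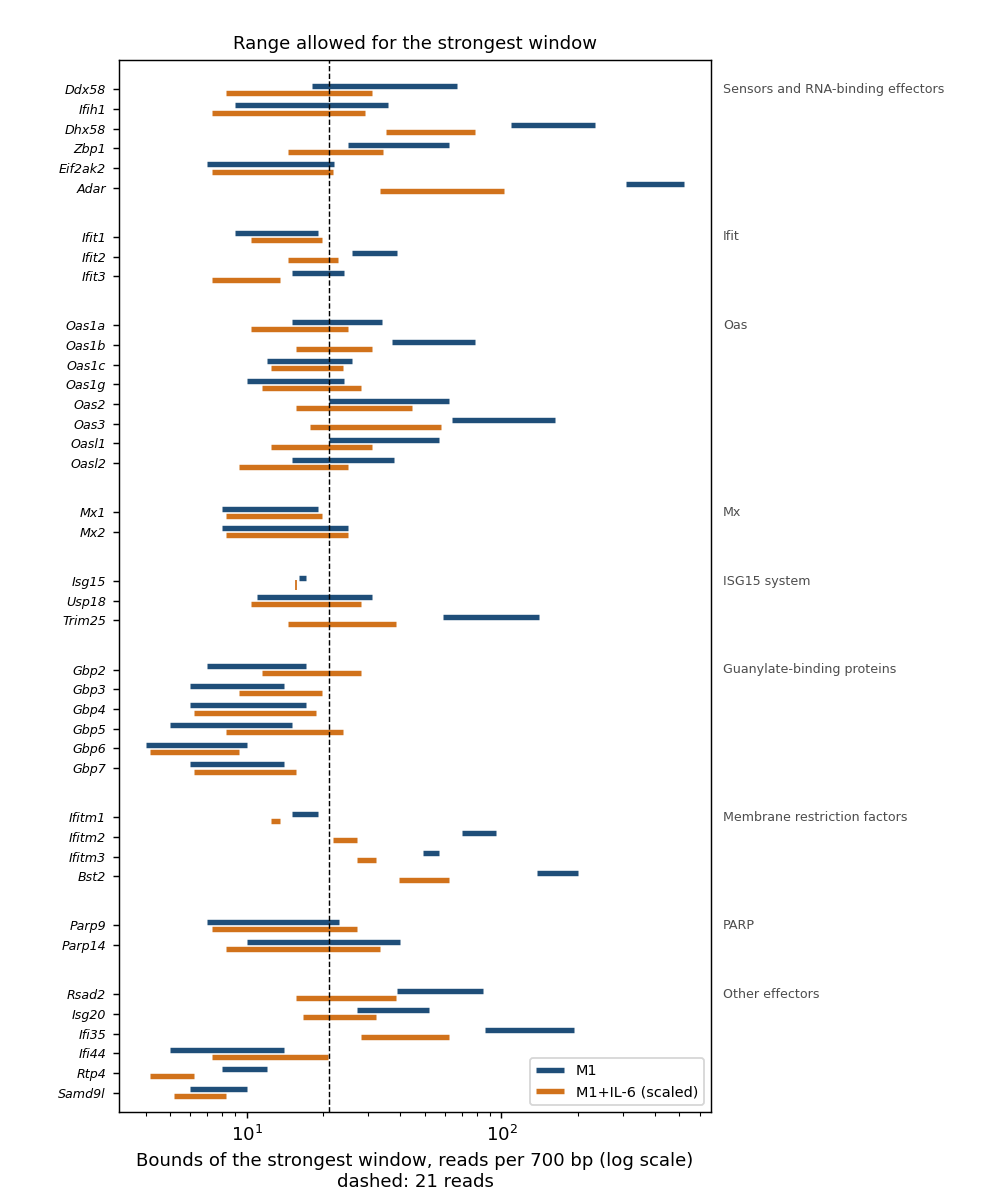
Bounds on the reads of each member's strongest 700-bp window (log scale) in M1 (blue) and M1+IL-6 (orange, scaled), as the mean and SD of the windows allow, with 21 reads dashed. In Adar, Bst2, Dhx58, Ifitm2, Trim25 and Ifi35 the orange bar lies wholly to the left of the blue bar, and no member shows the reverse.

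Other genes of the interferon pathway gave a similar spread. Of 66 such genes 63 are listed, and 52 had more than 21 reads. Of these 52, 28 were lower and 24 higher, with a median log2 ratio of -0.17, while 48.3% of all genes were lower. By the 2-fold limit 4 were lower and 1 (Ifnk) higher, against 13.4% and 1.69% of all genes. Ifnk held 11 reads in M1 and 23 in M1+IL-6. It passed the filter only through the library where it is high, so its call is tied to the filter. Of 9 receptors and kinases 6 were lower, among them Ifngr1, a chain of the interferon gamma receptor, at 326 reads in M1 and 168 in M1+IL-6. Of the 10 ligand genes only Ifng and Ifnk had more than 21 reads. Of 32 further induced genes 19 were lower and 3 at least 2-fold so, against the same 13.4% of all genes. The 3 were Uba7, the enzyme that activates ISG15 (1414 and 456 reads), Trex1, a DNA exonuclease (570 and 139 reads), and Irf9, a transcription factor of the interferon response (400 and 160 reads). In the same libraries all 12 genes that every cell uses were lower, with a median log2 ratio of -1.12. Of these, 8 were at least 2-fold lower, against 13.4% of all genes. All 7 lymphoid markers were higher, with a median of 0.47. All 4 epithelial and liver markers were higher too, with a median of 0.38. Of all genes 51.7% were higher. Among genes with a mean of both libraries from 5 to 10 reads per window, 4126 of 6482 were higher. Of 9 myeloid markers 5 were lower and 4 higher, with a median of -0.43. The interval lay below 1 in 4 of them (Cebpa, Cd14, Csf1r and Itgam), against 34.4% of all genes. It lay above 1 in 2 (Emr1 and Mpo), against 29.0% of all genes. None of these markers was without reads, and DNase I signal over coding spans does not by itself tell a cell type. The M1 means of the myeloid markers ran from 2.75 to 50.7 reads per window and those of the lymphoid markers from 4.82 to 10.5. The part of this shift in the ratios of the members was not tested.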

How the data were processed

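DHS-seq reads of 1 M1 and 1 M1+IL-6 library were trimmed, aligned by the authors to NCBIM37 with BWA (the version is not given in the sources used here) and summarized with Seqmonk. The deposited signal values are the mean and SD, for each of 55432 transcripts, across all 700-bp windows touched by the coding span. Windows tiled from the chromosome start gave the listed window number in 100% of rows. Means times windows were whole multiples, within 0.05 reads, of 1 in M1 and of 1.04 in M1+IL-6, so whole reads were recovered. The members and gene lists were chosen with earlier results of these data known. For each gene the transcript with the most windows was used. For log2 ratios 0.5 reads were added on both sides. Genes with more than 21 scaled reads in either library were compared, and called means past 2-fold. No test was planned or made. In each role group the 2 members with the most reads were described in full, with the 3 highest and 3 lowest ratios and the members whose 5′ end could be isolated. Stretches were obtained by subtracting transcripts that share window boundaries, and 275 sums reached by more than one route gave 0 disagreements. Windows were simulated over the listed spans as Poisson counts around 1 mean per gene span, without PCR copies. In them the M1+IL-6 to M1 comparison of 2346 genes recovered 6262 of 6262 rows. The simulated fold lay inside the interval for 194 of 199 changed genes. The interval assumes such counts, so this does not check it on the real libraries. Uniqueness was taken from 32-base sequences of NCBIM37, gene starts from GENCODE M1 and promoters from RefSeq (GRCm38.p6). Alternatives covered the scaling, the reads added, the filter, the fold, the transcript and the gene families. Python 3.11.15, numpy 2.4.6, pandas 2.3.3, scipy 1.17.1 and matplotlib 3.10.9 were used. Protein sequences, distal regions and the ChIP, 4C and expression experiments were not analysed here.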

Additional observations from a re-analysis of the deposited data

How the results depend on the processing

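Ratios were scaled by total reads over coding spans that do not overlap, by the median of ratios over all genes or not at all. Each of these left every member's ratio within its interval and 24 of 40 members lower. Scaling by the median of ratios over 544 single windows of 22 or more reads in each library raised all log2 ratios by about 1.83. The members then had 0 at least 2-fold lower, 35 at least 2-fold higher and 0 lower at all, with a median log2 ratio of 1.71. All genes had 18 lower and 17655 higher by 2-fold. Ratios turned to 1.60 for Dhx58, 1.26 for Ifitm2 and 1.40 for Bst2. Role medians became 1.57 (sensors), 1.498 (Ifit), 1.74 (Oas), 2.26 (Mx), 1.72 (ISG15 system), 2.30 (Gbp), 0.68 (membrane), 1.76 (PARP) and 1.49 (other effectors). The cause of the gap between scalings was not tested. With the transcript of fewest windows, the medians of the sensors, Oas and Mx genes were -0.10, 0.29 and 0.59, against -0.25, -0.09 and 0.43, so that of Oas changed sign. In that setting 37 members passed the filter and 19 were lower, and 4 ratios left their intervals: Adar at 1.07, Oas2 at 1.82, Oas3 at 1.53 and Oas1b at 0.422. A 1.5-fold limit gave 7 members lower and 3 higher, and 4289 and 2000 of all genes. The genes at least 2-fold higher numbered 161 with 5 reads added, 1090 with no filter on low values and 97 with more than 50 reads in either library. Without the Oas, Gbp, Ifit and Ifitm genes, 14 members were lower. No paired analysis was possible because the conditions have a single library each. Depth limits genes such as Isg15, Ifit3, Gbp6 and Rtp4, whose intervals allow both directions.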
